A study of Mus musculus with 10 samples.

Results

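Solitary H3K4me3 regions are places in the mouse genome that a deposited table lists as H3K4me3 regions and that lie apart from every other listed region. A row of the H3K4me3 table was taken as solitary when no row of the H3K4me2 or H3K4me1 table lay within 500 bp and no other H3K4me3 row lay within 1000 bp on the same chromosome. The rule used positions only and no measured value. It selected 7789 of the 32293 rows of the H3K4me3 table, or 24.1%, out of 85618 rows in the 3 tables. The other 24504 rows were 8821 clustered regions away from the other tables, 14732 regions beside an H3K4me2 but no H3K4me1 row, and 951 regions beside an H3K4me1 row.

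Dnmt3a is a DNA methyltransferase that places new methyl groups on cytosines, and Dnmt3a2 is its shorter isoform, which predominates in embryonic stem cells. Its ADD domain binds the tail of histone H3 when lysine 4 is unmethylated, and methylation of that lysine weakens the contact. H3K4me3, the trimethylated form, marks active gene promoters, which are usually free of DNA methylation. H3K4me1 and H3K4me2 are more typical of enhancers and of the flanks of promoters, so an H3K4me3 region with neither beside it and no neighbouring H3K4me3 region differs in layout from the usual broad promoter domain.

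The cells were Dnmt TKO J1 mouse embryonic stem cells, which lack Dnmt1, Dnmt3a and Dnmt3b, and each line expressed 1 FLAG-tagged Dnmt3a2 construct. The tested constructs were WWD Dnmt3a2, an engineered ADD domain made to tolerate H3K4 methylation, and R Dnmt3a2, made to tolerate phosphorylation of threonine 3 of histone H3. The reference was WT Dnmt3a2. All groups share the triple knockout, a tagged protein supplied from outside and passages 7 to 10. H3K4me3 was profiled once per construct, in cells labelled as line 1. Dnmt3a2 was profiled with a FLAG antibody in line 1 and in a sample called bulk for each construct, but each table holds 1 Dnmt3a2 column per construct, which could not be assigned to either. The total reads behind the columns were between 17259400 and 27424019. With 1 column per construct there was no replicate check and no test, so every comparison below describes these libraries, and the 95% intervals cover counting error only. Differences between constructs and differences between single cultures or libraries cannot be told apart. Levels are without subtraction of the input, which was not analysed here. Whether these regions lie at promoters or genes was not analysed here, because the coordinates are on mm9 and the gene table at hand is on another build.

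Solitary regions ranged from nearly adjacent to extremely remote. The nearest row of any table was a median of 5075 bp away, with quartiles at 1547 and 16177 bp. For 15 regions it was more than 1 Mb away. The nearest neighbour was an H3K4me1 row for 33.7% of the regions, an H3K4me2 row for 33.3% and another H3K4me3 row for 33.0%. No kind of neighbour therefore dominated the surroundings. The most remote region, named after its distance was seen, was chrX:112234066-112234165, 1822030 bp from the next row, with 11 H3K4me3 reads in WWD cells, 40 in R cells and none in WT cells.

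H3K4me3 was low at most solitary regions. The median was 7.30 reads per 10000000 in WWD cells, 5.47 in R cells and 7.98 in WT cells. At the other H3K4me3 regions it was 24.2, 21.9 and 28.2 in the same cells. The means were 18.0, 16.7 and 19.7 at solitary regions and 34.6, 32.6 and 39.0 elsewhere. A minority of solitary regions still carried strong signal: 10.4% in WWD cells, 9.56% in R cells and 11.5% in WT cells were above 50 reads per 10000000. The 951 regions beside H3K4me1 rows had a similarly low median of 7.69 in WWD cells, 5.83 in R cells and 9.04 in WT cells, so the low level was not confined to solitary regions.

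**Figure D1:**
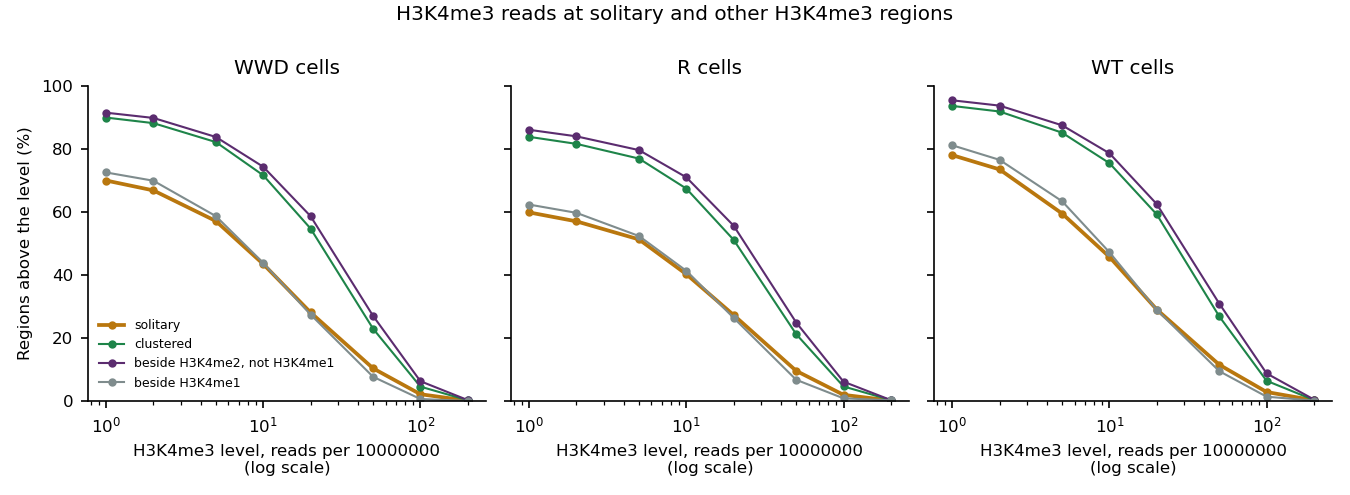
Share of regions (percent, vertical axis) above each H3K4me3 level (reads per 10000000, log axis) in WWD, R and WT cells, for the 7789 solitary regions and the 3 other kinds of H3K4me3 region. The solitary curve lies below the clustered and H3K4me2-bordering curves and close to that of the regions beside H3K4me1.

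Many solitary regions held no H3K4me3 read at all, although they are rows of an H3K4me3 table. The share with none was 25.5% in WWD cells (24.5 to 26.5, exact Clopper-Pearson), 35.1% in R cells (34.0 to 36.1) and 19.03% in WT cells (18.2 to 19.9). The other H3K4me3 regions were empty at 7.60%, 12.5% and 4.63% in the same order. All 3 libraries were empty at 803 solitary regions (10.3%), against 2.04% of the others, and all 3 held reads at 4329 (55.6%). Regions beside H3K4me1 rows came close to the solitary ones, with 23.6% empty in WWD cells, 31.5% in R cells and 15.7% in WT cells. In all 3 libraries 7.57% of them were empty, so empty regions were not confined to the solitary ones.

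Empty regions were unevenly spread over the libraries. R cells alone lacked reads at 951 solitary regions (12.2%), WWD cells alone at 375 (4.81%) and WT cells alone at 198 (2.54%). The whole H3K4me3 table had the same order, with 7.94%, 2.89% and 1.26%. A further 652 solitary regions (8.37%) were empty in both mutant lines and covered in WT, against 4.08% of the table. The R library was the deepest of the 3 H3K4me3 libraries and the WT library the shallowest. The share of a library's reads that fell in H3K4me3 regions was 9.29% in R, 9.87% in WWD and 11.1% in WT cells. The part of either in the empty shares was not tested. Gaps were rare where WT signal was strong. Among the 2262 solitary regions with at least 20 reads per 10000000 in WT cells, 11 were empty in WWD cells (0.486%) and 58 in R cells (2.56%). Among the 14709 other regions with that level, 0.204% were empty in WWD and 1.23% in R cells.

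The strongest solitary region by far was chr19:61275611-61275710. It held 2918 H3K4me3 reads in WWD cells, 2734 in R cells and 2183 in WT cells, or 1122, 997 and 1161 per 10000000. The next was chr17:3084298-3084397, with 1260 reads in WWD cells, 1376 in R cells and 1236 in WT cells. Then came chr8:19784863-19784962, with 791, 1057 and 892 reads, and chr8:19892571-19892670, with 665, 726 and 491 reads, in WWD, R and WT cells. The fifth was chr13:65998210-65998309, with 670, 668 and 418 reads. Scaled to depth, the 3 libraries differed by less than 2-fold at each of these 5 regions. The 5 also lay far from other rows, the closest neighbour being 6625 bp from the chromosome 13 region, and 107609 bp separated the chromosome 8 pair.

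Comparing constructs region by region asks whether H3K4me3 itself differed in cells with an altered Dnmt3a2. The ranking of solitary regions by H3K4me3 was broadly shared, with a Spearman correlation across regions of 0.78 between WWD and WT cells, 0.72 between R and WT cells and 0.72 between WWD and R cells. Those at the other regions were 0.84, 0.77 and 0.76. Regions are not independent replicates, and counts were lower at solitary regions. The part of that in these values was not tested. The summed reads, scaled to depth, were 0.914 times the WT level in WWD cells (0.910 to 0.919) and 0.848 times in R cells (0.844 to 0.853). Sums over the whole H3K4me3 table were also below WT, at 0.891 times in WWD and 0.838 times in R cells. On the log2 scale with a pseudocount of 3.72 reads per 10000000, the median ratio at solitary regions was 0 for WWD against WT and -0.17 for R against WT. Over the whole H3K4me3 table the medians were -0.13 and -0.25. When solitary regions were ranked into quintiles by H3K4me3, the median for WWD was 0 in the lowest, nearly empty quintile and -0.16, -0.09, -0.08 and -0.14 in the next 4, so the value of 0 includes many regions with few or no reads.

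Differences beyond 2-fold ran both ways. In WWD cells 907 solitary regions (11.6%) were over 2-fold higher than in WT, where 8.44% of the whole H3K4me3 table was. Another 1199 (15.4%) were over 2-fold lower, against 15.0% of the table. In R cells 856 (10.99%) were over 2-fold higher, against 9.06% of the table, and 1813 (23.3%) were over 2-fold lower, against 24.1%. The lower shares were thus close to those of the table, and the higher shares were slightly above them. Centring the ratios on the median of the table gave 1050 higher and 1021 lower in WWD cells, and 1177 higher and 1412 lower in R cells, so that the excess of lower regions was absent in WWD cells and smaller in R cells. All comparisons with WT share the WT library. Regions of the lowest H3K4me3 quintile, at most 1.24 reads per 10000000 on average, could not pass 2-fold with this pseudocount. In the highest quintile, 5.27% were over 2-fold higher and 8.29% lower in WWD cells, and 6.87% higher and 17.6% lower in R cells. These counts depended on the pseudocount. With one at the 1st percentile of positive values, 1392 were higher and 2096 lower in WWD cells. In R cells 1183 were then higher and 2854 lower. With one at the median, 45 were higher and 74 lower in WWD cells, and 74 higher and 216 lower in R cells. Shares over the whole H3K4me3 table for these pseudocounts, the centred ratios and the highest quintile were not analysed here.

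**Figure D2:**
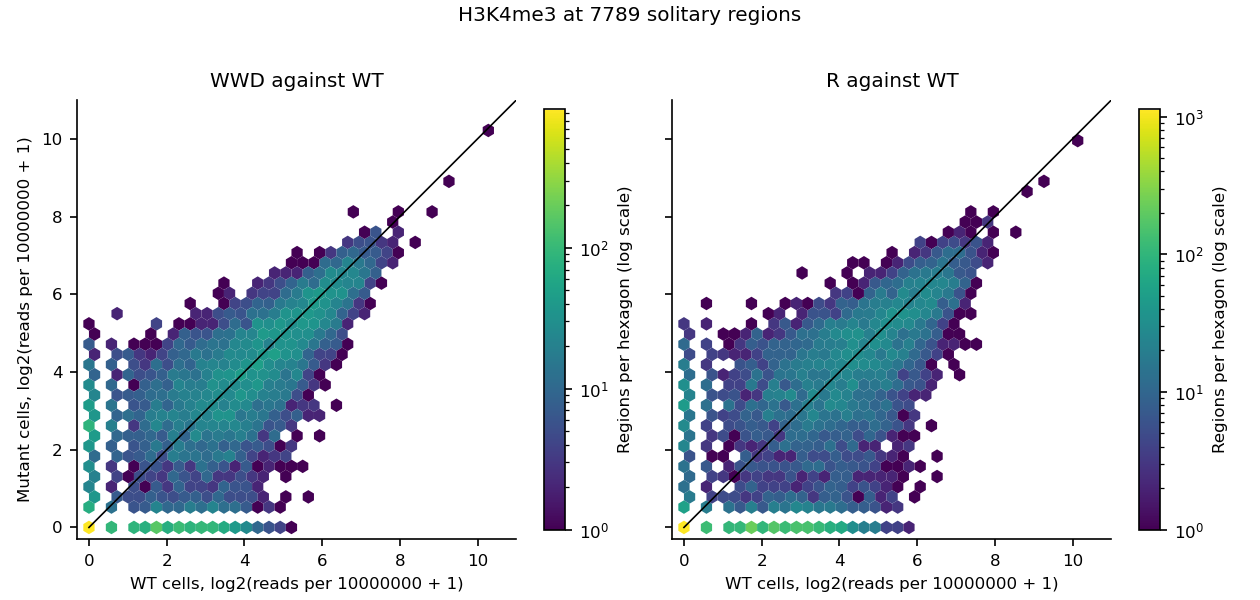
H3K4me3 at each of the 7789 solitary regions, as log2(reads per 10000000 + 1), with WWD (left) or R cells (right) on the vertical axis and WT cells on the horizontal axis. Colour gives the number of regions per hexagon and the line marks equal levels, and the row of hexagons at 0 on the vertical axis is denser in the R panel, where 2731 regions were empty, than in the WWD panel, where 1986 were.

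A few well-covered solitary regions had far more H3K4me3 reads in a mutant line than in WT cells. The region chr4:130190694-130190793 held 116 H3K4me3 reads in WWD cells and 154 in R cells, against 1 in WT cells. The ratio to WT was 83.8 in WWD cells (counting interval 14.8 to 3340) and 106 in R cells (18.7 to 4197). Signal was therefore present in both mutant lines and near the floor in WT. At chr13:78213992-78214091 the reads were 96 in WWD cells, 68 in R cells and 4 in WT cells, the same direction in both mutants. At chr9:54891677-54891776 the gain was in WWD cells, with 144 reads, against 25 in R and 9 in WT cells. R cells stood out at chr7:69354253-69354352, with 54 reads in WWD cells, 254 in R cells and 14 in WT cells. A similar order was seen at chr9:57977330-57977429, with 55, 153 and 10 reads.

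Losses showed the same variety. R cells held 4 reads at chr10:79565256-79565355, where WWD cells held 181 and WT cells 154, so that R was at 0.0178 times the WT level (0.00479 to 0.0465). They held none at chr13:58460317-58460416, against 66 in WWD and 102 in WT cells, at least 49.6-fold lower than WT against a floor of 3 reads. At chr6:87995042-87995141 the reads were 136 in WWD cells, 7 in R cells and 172 in WT cells. At each of these 3 regions WWD cells kept at least 25.4 reads per 10000000. WWD cells were lowest at chr9:14185247-14185346, with 10 reads, against 73 in R and 112 in WT cells. The reads were 21, 64 and 151 at chr5:96591384-96591483 and 17, 69 and 113 at chr2:32458312-32458411. At these last 3, R cells lay between WWD and WT cells. These regions were picked for their large ratios, and the intervals make no allowance for that.

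Dnmt3a2 reads were sparse at solitary regions, and WWD Dnmt3a2 had the most of the 3 proteins when scaled to depth. The mean was 0.586 reads per region per 10000000 for WWD (0.573 to 0.599), 0.230 for R (0.223 to 0.237) and 0.230 for WT (0.223 to 0.237). The WWD signal was 2.55 times that of WT (2.45 to 2.64) and 2.55 times that of R (2.45 to 2.64). R and WT Dnmt3a2 had a ratio of 0.9997 (0.959 to 1.04). At the other H3K4me3 regions the means were 0.458, 0.172 and 0.157, the ratio of WWD to WT was 2.92 (2.85 to 2.995) and that of R to WT was 1.10 (1.07 to 1.13). All 3 proteins thus had more reads per region at solitary regions than at the others pooled. The WWD to WT ratio was lower at solitary regions. Regions beside H3K4me1 rows, taken alone, had 0.639 for WWD and 0.257 for R, above the solitary means, and 0.217 for WT, below it.

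A minority of solitary regions held any Dnmt3a2 read. The share was 28.7% for WWD (27.7 to 29.8), 11.6% for R (10.9 to 12.4) and 12.7% for WT (11.9 to 13.4). It was 24.4%, 9.21% and 9.003% at the other H3K4me3 regions. Where a solitary region had a read, it had 3.52 reads on average for WWD, 5.002 for R and 4.36 for WT. Reads were therefore clumped. The variance of the reads over regions was 4.98 times the mean for WWD, 8.05 times for R and 6.31 times for WT, and the intervals, which take reads as independent, are too narrow for that reason. The 78 regions with the most reads held 13.0% of WWD, 24.9% of R and 21.9% of WT reads. Requiring 5 reads left 7.90% of solitary regions for WWD, 5.43% for R and 5.14% for WT.

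Overlap between the constructs was small in number and slightly above what their shares over all solitary regions give. None of the 3 had a read at 4420 regions (56.7%). WWD alone had reads at 1633, R alone at 494 and WT alone at 549, and all 3 at 68 (0.873%). These were 21.0%, 6.34% and 7.05% of solitary regions for 1 construct alone, where the whole H3K4me3 table had 19.6%, 5.88% and 5.98%, with 0.468% for all 3. Of the 2238 regions with a WWD read, 14.4% also had an R read and 15.6% a WT read, against 11.6% and 12.7% of all solitary regions. Of the 905 with an R read 35.7% had a WWD read, and of the 987 with a WT read 35.5% did, against 28.7% of all solitary regions. Where at least 2 of the 3 proteins had a read, the WWD to WT ratio was 1.65 (1.55 to 1.75) and the WWD to R ratio was 1.59 (1.503 to 1.69). That filter acts on the reads that form the ratio and drops the 1633 regions with WWD reads alone, so lower ratios are built into it.

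The strongest H3K4me3 region also had the most WWD and R Dnmt3a2 reads of any solitary region, but not the most WT reads, where the maximum was 23. At chr19:61275611-61275710 the reads were 48 for WWD, 57 for R and 21 for WT, a ratio to WT of 3.18 for WWD (1.87 to 5.59) and 2.58 for R (1.54 to 4.48). The other 4 leading regions held 8, 1, 5 and 5 WWD reads, in order of H3K4me3, 3 of them above the 90th percentile of solitary regions (2.32 per 10000000). Of these 4, only chr8:19892571-19892670 had other Dnmt3a2 reads, 1 for R and 3 for WT. Without the chromosome 19 region the ratio over all solitary regions was 2.54 for WWD to WT and 0.992 for R to WT.

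The solitary regions with the largest differences between 2 constructs, which are one-sided by that choice, follow as a description. WWD alone had reads at chr4:145453955-145454054, with 24, and at chr11:60923726-60923825, with 21. The first carried H3K4me3, with 173 reads in WWD cells, 79 in R cells and 142 in WT cells, and the second carried none in any library. WWD also had 21 reads at chr17:47668685-47668784, where R and WT had none. R alone had 27 reads at chr10:95025266-95025365, and 24 at chr5:151239502-151239601, where WWD had none and WT had 1. At chr1:184885144-184885243 WWD had no read, R had 21 and WT had 7. WT led at chr12:85599675-85599774, with 3 reads for WWD, none for R and 23 for WT. The reads were 0, 0 and 22 at chr11:88759183-88759282 and 2, 0 and 19 at chr2:10285016-10285115. Such stacks were found for each protein, and 2 of these 3 regions led by WT held no H3K4me3 read in any library.

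Shared stacks were small apart from chromosome 19. The region chr1:137057714-137057813 had 7 reads for WWD, 16 for R and 9 for WT. At chr5:117576351-117576450 there were 6, 8 and 6 reads, at chr6:72868704-72868803 there were 4, 10 and 17, and at chr5:130262991-130263090 there were 7, 6 and 5. All 4 had at most 8.73 H3K4me3 reads per 10000000 averaged over the 3 libraries. None of the WWD to WT or R to WT intervals at these 4 regions left out 1.

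Because H3K4 methylation repels the WT ADD domain, the relation of Dnmt3a2 to H3K4me3 level is the comparison the WWD design addresses. Solitary regions were divided into quintiles by their mean H3K4me3 over the 3 libraries, from a median of 0 reads per 10000000 in the lowest to 50.2 in the highest. WWD Dnmt3a2 was 0.609, 0.673, 0.559, 0.533 and 0.556 reads per region per 10000000 from the lowest quintile to the highest. R was 0.264, 0.273, 0.225, 0.190 and 0.199. WT was 0.309, 0.279, 0.217, 0.192 and 0.154. The highest quintile had 0.914 times the WWD signal of the lowest (0.851 to 0.981), 0.754 times the R signal (0.686 to 0.828) and 0.497 times the WT signal (0.449 to 0.550). The lower Dnmt3a2 signal at high H3K4me3 was thus slight for WWD and steepest for WT, with R between.

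The ratio between constructs followed. WWD to WT was 1.97 in the lowest quintile (1.82 to 2.12), then 2.42, 2.57 and 2.78, and 3.62 in the highest (3.28 to 3.99). R to WT was 0.854 in the lowest quintile (0.785 to 0.929), 0.980, 1.03 and 0.988 in the next 3, and 1.29 in the highest (1.16 to 1.44). Without the chromosome 19 region the highest quintile had ratios of 3.63 for WWD to WT and 1.25 for R to WT. Since each ratio has WT Dnmt3a2 as its denominator, the 2 sets of ratios share that column.

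**Figure D3:**
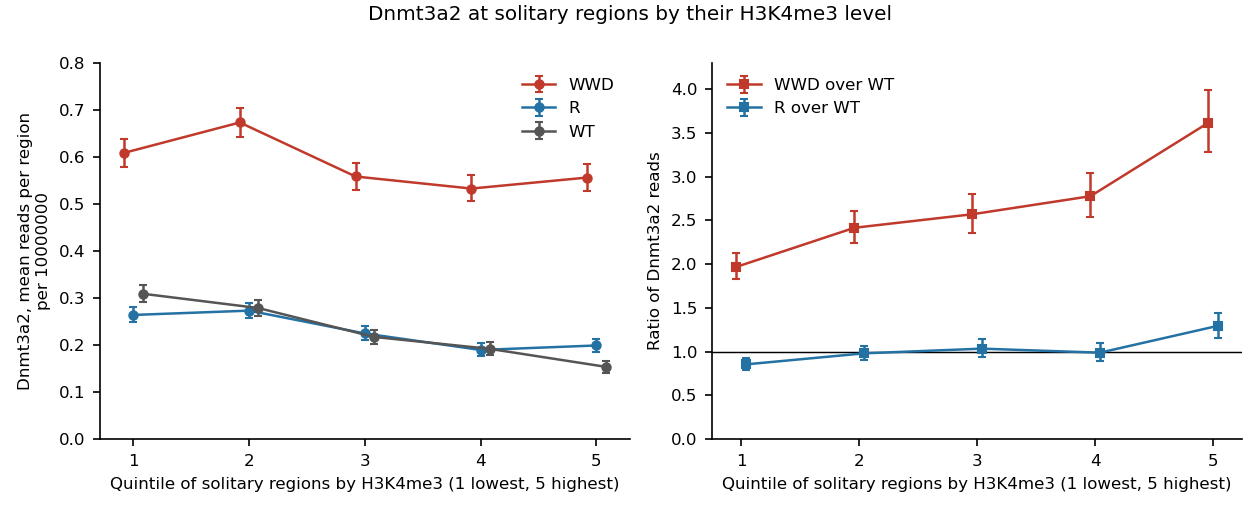
Left, mean Dnmt3a2 reads per region per 10000000 in each H3K4me3 quintile of the solitary regions for WWD, R and WT, with 95% Poisson intervals. Right, the ratios of WWD to WT and of R to WT with 95% counting intervals: WWD to WT is 1.97 in the lowest and 3.62 in the highest quintile, and R to WT stays near the line at 1 except at both ends.

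Regions empty of H3K4me3 gave the other end of this range. At the 803 solitary regions with no H3K4me3 read in any library, Dnmt3a2 averaged 0.583 for WWD (0.543 to 0.625), 0.272 for R (0.250 to 0.296) and 0.308 for WT (0.283 to 0.333). At the 4329 with H3K4me3 reads in all libraries it averaged 0.537 for WWD, 0.210 for R and 0.191 for WT. The WWD to WT ratio was 1.90 at the empty regions (1.70 to 2.11) and 2.81 at the covered ones (2.66 to 2.96).

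Solitary regions were richer in low H3K4me3 levels, so they were also compared with other regions within quintiles of level. When the whole H3K4me3 table was cut into quintiles, the lowest held 40.2% of solitary regions, 14.0% of clustered regions and 11.9% of those beside H3K4me2, and the highest held 9.32%, 21.7% and 25.5%. Of the solitary regions in the lowest, 803 of 3134 had no H3K4me3 read in any library. Clustered regions there had 248 of 1231, those beside H3K4me2 180 of 1752 and those beside H3K4me1 72 of 342. Levels within that quintile were therefore not fully matched, and the part of this in the values below was not tested. In the lowest table quintile, Dnmt3a2 at solitary regions was 0.639 for WWD, 0.268 for R and 0.293 for WT. Clustered regions had 0.562, 0.264 and 0.214 there, and regions beside H3K4me2 had 0.547, 0.216 and 0.243. In the middle quintile solitary regions had 0.528 for WWD, 0.195 for R and 0.194 for WT, against 0.393, 0.165 and 0.135 at clustered regions. In the highest, solitary regions had 0.617, 0.244 and 0.165, against 0.483, 0.151 and 0.130 at clustered regions. Leaving out the chromosome 19 region made the solitary values of that quintile 0.579, 0.214 and 0.153. In each table quintile and for each construct the solitary mean was above those of the clustered and H3K4me2-bordering regions, but counting intervals overlapped for R in quintiles 1 (clustered regions) and 4 (both) and for WT in quintile 2 (both). Without the chromosome 19 region they also overlapped for WT in quintile 5 with both kinds, where solitary regions then had 0.153 (0.136 to 0.173). The regions beside H3K4me1, of which 36.0% fell in the lowest quintile, had still more there, 0.723 for WWD, 0.303 for R and 0.318 for WT. Their means were also above the solitary ones for WWD in quintiles 2, 4 and 5 and for R in quintiles 2, 3 and 4. They were below for WWD in quintile 3, for R in quintile 5 and for WT in quintiles 2 to 5. Counting intervals overlapped the solitary ones except for WWD in quintile 5, 0.845 (0.676 to 1.04) against 0.617 (0.574 to 0.662).

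In the highest table quintile the WWD to WT ratio was 3.73 at solitary regions (3.26 to 4.29), 3.70 at clustered regions (3.37 to 4.08) and 3.51 beside H3K4me2 (3.28 to 3.76). The 59 regions beside H3K4me1 in that quintile had a ratio of 7.98 (4.58 to 14.9). In the lowest it was 2.18 at solitary regions (2.07 to 2.30), 2.63 at clustered regions (2.38 to 2.90), 2.25 beside H3K4me2 (2.08 to 2.43) and 2.28 beside H3K4me1 (1.95 to 2.67). Solitary regions thus had a ratio like that of clustered and H3K4me2-bordering regions in the highest quintile. It was below that of clustered regions in the lowest, where levels were not fully matched. The R to WT ratio in the highest quintile was 1.48 at solitary regions (1.27 to 1.72). Without the chromosome 19 region it was 1.39 (1.19 to 1.63). Clustered regions had 1.16 (1.04 to 1.29), those beside H3K4me2 1.205 (1.115 to 1.301) and those beside H3K4me1 2.03 (1.07 to 4.03). With or without the chromosome 19 region, the solitary interval overlapped that of each other kind of region.

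Distance from the next listed region went with both marks. Median H3K4me3 at the 2355 solitary regions with a neighbour within 2 kb was 11.9 reads per 10000000 in WWD cells, 9.85 in R cells and 13.3 in WT cells. At the 488 regions over 100 kb from any row it was 3.84 in WWD cells, 0 in R cells and 4.26 in WT cells, and 50.2% of them had no read in R cells. The share with a Dnmt3a2 read changed in another way. For WWD it was 28.0% within 2 kb, 31.1% at 2 to 5 kb, 32.7% at 5 to 10 kb, 31.0% at 10 to 20 kb, 26.1% at 20 to 50 kb, 21.4% at 50 to 100 kb and 20.3% beyond. R had 11.6% within 2 kb, 13.0% at 10 to 20 kb and 6.97% beyond 100 kb (4.87 to 9.60). WT had 11.4%, 15.2% and 7.38% (5.22 to 10.1) in the same classes. Remote solitary regions therefore had lower H3K4me3 medians and smaller shares with a read of each Dnmt3a2 protein.

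The lower Dnmt3a2 of remote regions was seen at low and at high H3K4me3. Among solitary regions below the median of H3K4me3, Dnmt3a2 over 100 kb from any row averaged 0.358 for WWD, 0.142 for R and 0.121 for WT. Within 2 kb it averaged 0.664, 0.323 and 0.296. Above that median it was 0.367, 0.0898 and 0.0412 over 100 kb away, and 0.509, 0.183 and 0.155 within 2 kb. Each protein had fewer reads at remote regions on both sides of the median. Across distance the WWD to WT ratio did not follow the H3K4me3 median. It was 2.72 within 2 kb (2.54 to 2.92) and 1.94 at 50 to 100 kb (1.59 to 2.38). Over 100 kb away, where median H3K4me3 was lowest, it was 3.88 (3.11 to 4.88), with 109 WT Dnmt3a2 reads in all. Chromosome X held 6.15% of the regions over 100 kb away and 2.51% of those within 2 kb, and without chromosomes 8, X and Y the shares with a Dnmt3a2 read over 100 kb away were 20.5% for WWD, 7.08% for R and 7.76% for WT, close to those with them.

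**Figure D4:**
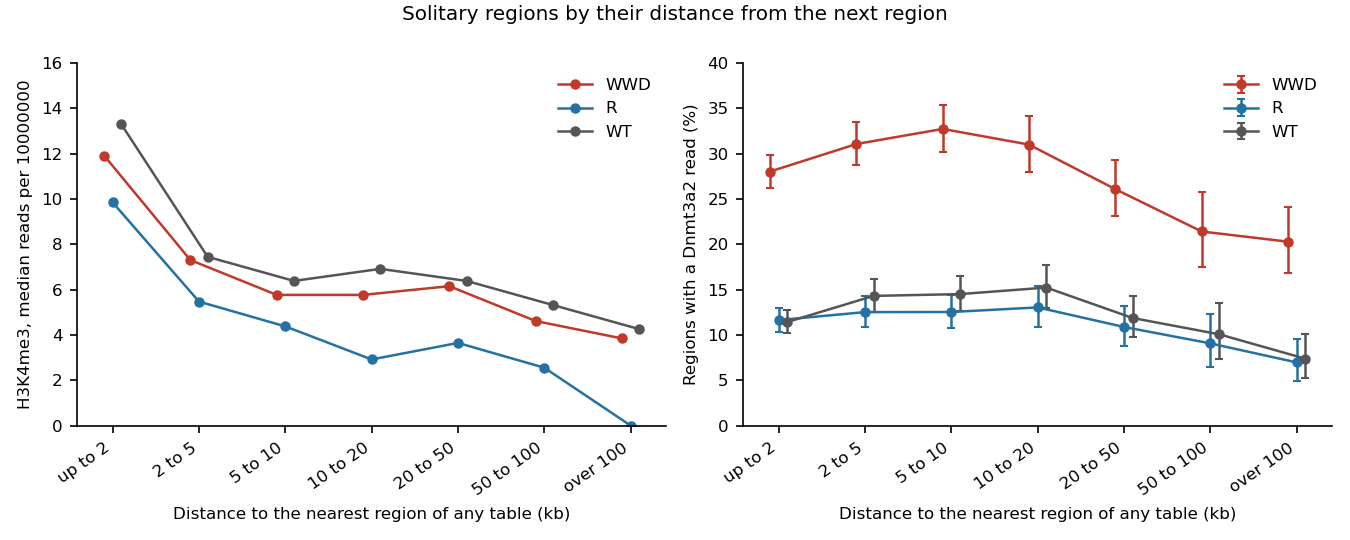
Solitary regions by distance to the nearest row of any table (kb, horizontal axes), for WWD, R and WT. Left, median H3K4me3 in reads per 10000000, which is 0 in R cells beyond 100 kb. Right, share of regions with a Dnmt3a2 read (percent) with 95% Clopper-Pearson intervals, highest between 5 and 20 kb and lowest beyond 100 kb in each construct.

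Chromosomes differed as well. Solitary regions made up 18.97% of the H3K4me3 table on chromosome X and between 21.0% and 27.3% on the autosomes. The 192 on chromosome X had a mean H3K4me3 of 13.6 in WWD cells, 12.3 in R cells and 12.9 in WT cells, below every autosome, whose lowest means were 14.9, 13.8 and 16.2. Relative to the median autosome these were ratios of 0.797, 0.763 and 0.675. The other H3K4me3 regions on X had lower ratios of 0.562, 0.589 and 0.524. Medians gave another order: on X they were 8.27 in WWD cells, 5.47 in R cells and 7.45 in WT cells, and the middle autosome had 7.30, 4.74 and 7.98. Fewer X regions were empty, 19.3% in WWD, 31.8% in R and 16.7% in WT cells. On X the mean was thus lowest in each line, while the median was above that of the middle autosome in WWD and R cells.

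Dnmt3a2 was also lowest on chromosome X. Means at its solitary regions were 0.302 for WWD, 0.120 for R and 0.104 for WT, or 0.512, 0.530 and 0.440 times the median autosome. A read was present at 28 of the 192 regions for WWD and at 10 each for R and WT. The autosomes ranged between 0.476 and 0.727 for WWD, between 0.158 and 0.389 for R and between 0.110 and 0.304 for WT, so that X and the lowest autosome were close for WT. The other H3K4me3 regions on X were low too, with Dnmt3a2 at 0.475 (WWD), 0.561 (R) and 0.541 (WT) times the median autosome. Chromosome 8 was at the other extreme. Its 401 solitary regions had the highest mean H3K4me3 in each line, 24.1 in WWD cells, 24.5 in R cells and 27.5 in WT cells, and the highest WWD Dnmt3a2. The other H3K4me3 regions on chromosome 8 were likewise highest in both. Their H3K4me3 was 1.32 (WWD), 1.35 (R) and 1.35 (WT) times the median autosome. How many copies of each chromosome these lines carried was not analysed here.

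**Figure D5:**
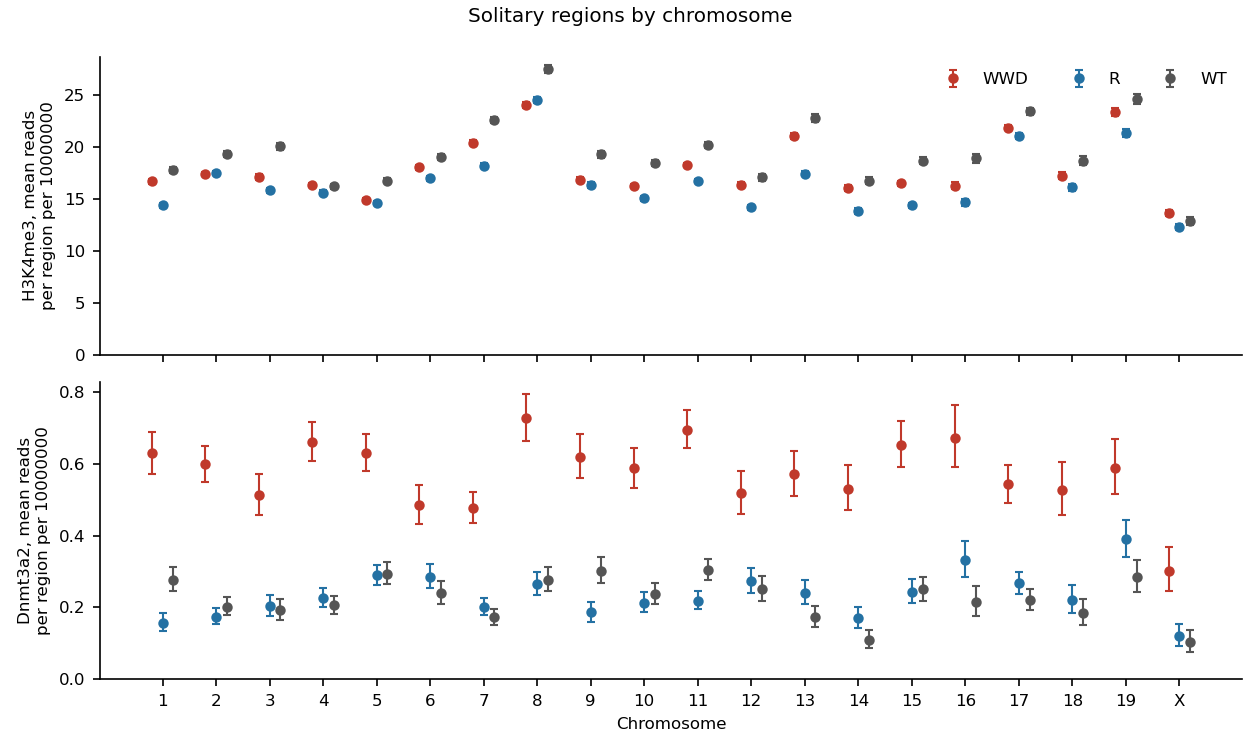
Mean reads per region per 10000000 at solitary regions on each autosome and on chromosome X for WWD, R and WT, with 95% Poisson intervals. Top, H3K4me3, highest on chromosome 8 and lowest on X. Bottom, Dnmt3a2, with WWD above R and WT on every chromosome shown.

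Regions close to the limits of the rule give its resolution. The 567 solitary regions lying over 500 and up to 750 bp from a row of another table averaged 25.8 H3K4me3 reads per 10000000 in WWD cells, 24.1 in R cells and 29.7 in WT cells. The 1606 regions just outside, over 250 and up to 500 bp away with no H3K4me3 row within 1000 bp, averaged 36.3, 32.7 and 40.8. Their Dnmt3a2 means were 0.526 for WWD, 0.252 for R and 0.186 for WT inside and 0.503, 0.190 and 0.160 outside. The 604 solitary regions over 1000 and up to 1500 bp from another H3K4me3 row averaged 24.0, 22.6 and 26.3 H3K4me3 reads in WWD, R and WT cells, and the 2650 otherwise alike regions over 500 and up to 1000 bp away averaged 30.6, 29.5 and 33.7. H3K4me3 was thus graded across both limits. Among single regions, chr13:100894897-100894996 lay just inside at 502 bp, with 247 H3K4me3 reads in WWD cells, 300 in R cells and 192 in WT cells. Just outside at 500 bp lay chr12:72071031-72071130, with 145, 116 and 74 reads.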

How the data were processed

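Dnmt3a2 and H3K4me3 were profiled by ChIP-seq after micrococcal nuclease digestion and sonication. The submitters' processing notes name Bowtie and mm9. The region caller was not given in the sources used here. Each deposited table has log2 values for regions of 100 bp, and the file headers give a total and an effective total per column. The values had the form log2 of 1 plus the effective total over the total times the sum of the whole reads and a random part under 1, rounded to 2 decimals. That form was read from the values. Whole reads were recovered by inverting it, and levels are reads per 10000000 of the library total. Recovery was tested on simulated data of the same form, which checks rounding and not the form. Distances are between nearest edges, and a distance equal to a limit counts as within it. No listed sample matched 2 more columns, which were left out.

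Intervals are 95%: exact Poisson for means, exact conditional binomial for ratios and Clopper-Pearson for shares. PCR reads are not independent molecules, so all of them, and floors of 3 reads, cover counting error only. Log2 ratios used a pseudocount at the 10th percentile of positive H3K4me3 values, and a ratio of exactly 2-fold was not counted. Fits that need separate samples per construct were not run. The members, the comparisons and the named-region rule were chosen with earlier results of these data known. The rule named the 5 highest by mean H3K4me3, the 3 highest and 3 lowest ratios or differences per comparison (H3K4me3 ratios above the table's median level only), the 5 with most Dnmt3a2 in their lowest column, and the 2 nearest each limit. The software was scipy 1.17.1, numpy 2.4.6 and pandas 2.3.3 under Python 3.11.15, with matplotlib 3.10.9 for plots.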

Additional observations from a re-analysis of the deposited data

How the results depend on the processing

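No paired analysis was possible because each table holds 1 Dnmt3a2 column and 1 H3K4me3 column per construct, so no sample could be left out either. Alternatives for chromosome X, remote regions and the top over bottom quintile, the other distances behind shares, and leaving out the 5 highest H3K4me3 regions or the highest were chosen after seeing the data. Over 27 results that answer a comparison, 70 of 116 alternatives left the value within its counting interval (or a count within 1.5 times), 44 moved it further and 2 reversed it. The 70 include the effective total as depth for the Dnmt3a2 ratios. The columns share that total, so those values could not change. The causes were not tested. Taking X over the median autosome by medians gave 1.13 in WWD and 1.15 in R cells, above 1, and 0.933 in WT cells. The Dnmt3a2 ratio of WWD to WT was 2.65 with 500 bp to another H3K4me3 row and 1.65 with a read in at least 2 columns, where WWD to R was 1.59 (that filter lowers both by construction); it was 2.14 in the lowest quintile ranked by WT H3K4me3. Shares with Dnmt3a2 were 20.7% (WWD), 8.78% (R) and 9.71% (WT) at 2 reads, 7.90%, 5.43% and 5.14% at 5 reads, and 27.6% (WWD) and 11.8% (WT) with 500 bp to another H3K4me3 row. Shares without H3K4me3 in WWD, R and WT cells were 28.4%, 38.6% and 22.0% at 1 read or fewer, 30.0%, 40.1% and 24.2% at 2 or fewer, 23.4%, 32.2% and 17.3% with 250 bp to the other tables, 26.6%, 36.5% and 20.1% with 1000 bp, 21.0%, 29.7% and 15.6% with 500 bp to another H3K4me3 row, and 26.7%, 36.7% and 20.1% with 2000 bp. The median log2 ratio of WWD to WT was -0.20 in the deposited values, -0.12 above the table's median level and -0.037 with 500 bp to another H3K4me3 row. That of R to WT was -0.22 and -0.045 with pseudocounts at the 1st percentile and the median, and -0.39 in the deposited values. Counts over 2-fold with those 2 pseudocounts were 1392 and 45 higher and 2096 and 74 lower in WWD cells. In R cells they were 1183 and 74 higher and 2854 and 216 lower. Of 24 alternatives for single named regions, 21 moved the log2 ratio by over 0.5 and none reversed it.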
